A study of Mus musculus with 9 samples.

Results

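Genes for protein folding in the endoplasmic reticulum (ER) and for the unfolded protein response were examined in cardiac fibroblasts cultured from mice, by polyA RNA sequencing of 9 libraries. The members were the 38 genes with a fixed list of symbols, out of 56953 genes in the deposited table, and all 38 were found. Of these, 37 passed the filter on low values (at least 1 TPM in at least 3 libraries, where TPM is a gene's share of all transcripts, corrected for length and scaled to a fixed total), among 14215 genes tested. The member that did not pass was Derl3. The donors were adult male wildtype C57BL/6N mice, whose hearts were digested with enzymes, with cardiomyocytes removed by settling and the adherent cells grown on. Every culture was infected with an adenovirus, in medium without serum, and harvested 72 h later, so all groups share an adenoviral infection. The virus carried GFP in the 3 control libraries (Ad-GFP), junctophilin-2 in 3 libraries (Ad-JP2) and a hairpin RNA against junctophilin-2 in 3 libraries (Ad-shJP2). No library of a control hairpin or of uninfected cells was analysed here, so a response to a hairpin as such and one to its target cannot be told apart. Whether replicates came from different cultures or animals is not given, so the p-values measure the spread between these libraries, which may be technical.

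The ER folds secreted and membrane proteins with the chaperones BiP (Hspa5) and GRP94 (Hsp90b1), the lectin chaperones calnexin and calreticulin, and disulfide isomerases. Misfolded chains are sent back to the cytosol and degraded, a route called ER-associated degradation. When unfolded protein builds up, the sensors ATF6, IRE1 (Ern1) and PERK (Eif2ak3) raise chaperone and degradation genes and slow translation, with ATF4 and CHOP (Ddit3) acting downstream of PERK and of other kinases of eIF2. Fibroblasts secrete large amounts of collagen, whose chains are folded by this machinery and by the collagen chaperone HSP47 (Serpinh1).

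The 6 promoter sequences that follow are shown because they carry the motifs named below in members whose messages moved in different ways. Each is the 250 bases before the RefSeq gene start in the mouse build GRCm38.p6, written 5′ to 3′ on the gene's strand, with the matched motif in capitals.
Hspa5 (chr2:34771840-34772089, plus strand): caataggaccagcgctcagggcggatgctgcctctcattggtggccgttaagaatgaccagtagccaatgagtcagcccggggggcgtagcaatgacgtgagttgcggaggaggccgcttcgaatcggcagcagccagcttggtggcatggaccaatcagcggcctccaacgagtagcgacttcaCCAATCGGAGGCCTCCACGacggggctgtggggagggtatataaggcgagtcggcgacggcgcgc
Hsp90b1 (chr10:86705445-86705694, minus strand): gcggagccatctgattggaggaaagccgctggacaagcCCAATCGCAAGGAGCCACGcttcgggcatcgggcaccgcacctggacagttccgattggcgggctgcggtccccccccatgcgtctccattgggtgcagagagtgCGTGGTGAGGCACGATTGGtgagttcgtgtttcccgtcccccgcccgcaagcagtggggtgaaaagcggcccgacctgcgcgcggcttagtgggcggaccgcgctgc
Canx (chr11:50325674-50325923, minus strand): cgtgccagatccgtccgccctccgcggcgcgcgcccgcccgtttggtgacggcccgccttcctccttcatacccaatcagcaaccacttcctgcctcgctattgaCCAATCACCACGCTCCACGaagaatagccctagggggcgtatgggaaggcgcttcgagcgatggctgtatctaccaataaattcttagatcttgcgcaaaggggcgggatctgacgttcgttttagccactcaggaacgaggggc
Creld2 (chr15:88819396-88819645, plus strand): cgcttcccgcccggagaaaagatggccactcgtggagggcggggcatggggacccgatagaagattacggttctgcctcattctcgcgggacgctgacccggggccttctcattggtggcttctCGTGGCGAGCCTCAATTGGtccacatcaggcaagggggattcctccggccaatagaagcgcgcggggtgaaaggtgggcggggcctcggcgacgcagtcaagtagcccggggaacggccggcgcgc
Herpud1 (chr8:94386179-94386428, plus strand): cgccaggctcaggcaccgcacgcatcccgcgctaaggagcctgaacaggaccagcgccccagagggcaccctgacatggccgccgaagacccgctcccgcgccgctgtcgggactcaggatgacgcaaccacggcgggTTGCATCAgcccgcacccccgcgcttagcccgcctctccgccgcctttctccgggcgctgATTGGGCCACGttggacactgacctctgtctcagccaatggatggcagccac
Chac1 (chr2:119350992-119351241, plus strand): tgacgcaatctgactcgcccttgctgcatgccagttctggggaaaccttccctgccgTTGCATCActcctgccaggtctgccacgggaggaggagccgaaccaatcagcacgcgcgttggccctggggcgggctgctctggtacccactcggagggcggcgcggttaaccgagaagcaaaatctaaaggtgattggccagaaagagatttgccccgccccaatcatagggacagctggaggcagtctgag

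The capitals mark the ER stress response element (ERSE, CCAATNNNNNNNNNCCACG), which ATF6 and XBP1 bind together with NF-Y, its shorter form ERSE-II (printed in Herpud1 as ATTGGGCCACG), and the element bound by ATF4 with C/EBP factors (CARE, TGATGNAA). Both strands were searched, and a match is a description of the letters only. An ERSE was found in 9 of 34 members with an entry in the promoter table (Hspa5, Hsp90b1, Canx, Calr, Creld2, Derl3, Dnajc3, Pdia6 and Syvn1), against 0.113% of all 32851 promoters of the same length. Hsp90b1 held 2 ERSE matches, on opposite strands. ERSE-II was found in Herpud1 alone of the members and in 0.0304% of promoters. CARE was found in Asns, Chac1 and Herpud1, against 3.45% of promoters, and the 8 bases TGACGTGG (UPRE, a site of XBP1) in 0 members and 0.563% of promoters. Members were counted per gene, whereas these shares are per promoter. Over the 9432 tested genes with an entry the shares per gene were 0.17% for ERSE, 0.053% for ERSE-II, 2.42% for CARE and 0.901% for UPRE. ERSE-II holds the end of ERSE, and the full ERSE and ERSE-II did not overlap in any member.

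Jph2, the gene the viruses target, stood at 129 ± 2.44 TPM with Ad-GFP, 688 ± 49.9 with Ad-JP2 and 119 ± 3.09 in the libraries labelled Ad-shJP2 (SD, n = 3), where the difference from Ad-GFP did not pass (limma adjusted p = 0.0724). RNA made from the virus may be counted in the Ad-JP2 value, which TPM per gene cannot separate from the cells' own Jph2. Read depth, recovered approximately from the steps of low values, was 21250000 to 45750000 reads, lowest in the Ad-shJP2 libraries, at 21250000 to 33250000 reads. Of 10 cardiac fibroblast markers all passed the filter, and their summed level was 11334 to 11440.0 TPM with Ad-GFP, 11142 to 11902 with Ad-JP2 and 7490.2 to 7726 with Ad-shJP2, while that of 10 macrophage and leukocyte markers was 2739 to 2776, 2510.0 to 2551 and 3201 to 3249 TPM. Single genes made up most of each sum, Vim the first (7192 to 7310 TPM with Ad-GFP) and Lyz2 the second (1715 to 1744 TPM). Cardiomyocyte markers summed to 28.3 to 32.0 TPM with Ad-shJP2, 38.1 to 44.2 with Ad-JP2 and 45.4 to 45.5 with Ad-GFP. Of these, Myh6, Ryr2 and Ttn were under 1 TPM in all 9 libraries. All 8 markers of plasma and B cells, which are rich in ER, were under 1 TPM in all 9 libraries.

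In control cells the members spanned a wide range of levels, set here per length as TPM. Serpinh1 was the most abundant at 1673 ± 4.80 TPM (SD, n = 3). Calreticulin (1040.0 ± 37.7 TPM) and the disulfide isomerase P4hb (993 ± 14.4 TPM), which is also a subunit of collagen prolyl hydroxylase, came next, with library values that lay close without overlapping. Pdia3 (428 ± 49.6), the ER-resident and secreted factor Manf (428 ± 3.76) and Hspa5 (426 ± 2.39 TPM) followed, with values that overlapped. At the low end stood the 3 stress sensors, Ern1 at 9.58 ± 0.655, Eif2ak3 at 11.8 ± 0.703 and Atf6 at 14.7 ± 0.367 TPM, with the BiP cofactor Dnajb9 at 13.7 ± 0.506 TPM. Derl3, a derlin known from secretory tissues, was at 0.087, 0.049 and 0.08 TPM with Ad-GFP, 0.088, 0.141 and 0.044 with Ad-JP2 and 0, 0.189 and 0.381 with Ad-shJP2, where 3 reads correspond to 0.112 to 0.227 TPM, so no fold is given for it. The 38 members together held 0.709% of all TPM with Ad-GFP, 0.747% with Ad-JP2 and 0.614% with Ad-shJP2.

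**Figure D1:**
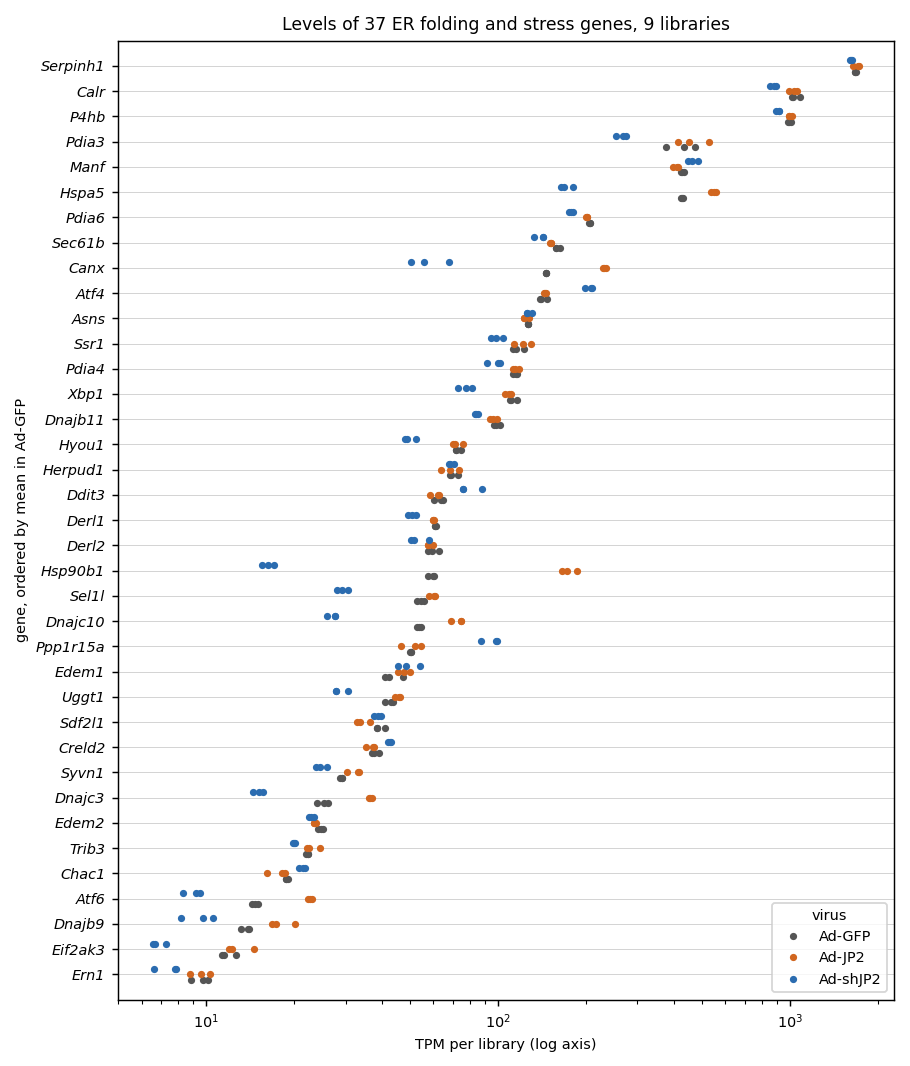
TPM of the 37 tested members in each of the 9 libraries, on a log axis, with genes ordered by their mean with Ad-GFP and 3 points per virus. Hsp90b1 and Canx show the widest separation of the 3 groups, with Ad-JP2 highest and Ad-shJP2 lowest, while the points of Serpinh1 and Asns nearly coincide.

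As a list, the members were close to all genes with Ad-JP2, while single folding genes, Hsp90b1 first among them by size, were higher. In the libraries labelled Ad-shJP2 more members fell than rose. In Ad-JP2 against Ad-GFP 7 of 37 members were called higher and 1 lower by limma, where 15% of all genes tested were called, 13.4% higher and 1.64% lower. With median-of-ratios scaling these were again 7 and 1 members, against 12.7% and 2.81% of genes. The members' median log2 fold change was 0.0090, beside 0.012 over all genes. Library values did not overlap between these groups for 17 members, against 32.2% of all genes. In Ad-shJP2 against Ad-GFP 6 members were called higher and 26 lower, where 59.4% of all genes were called, 21.8% higher and 37.7% lower. The median was -0.22, beside -0.11 over all genes. There 32 members had no overlap, against 65.3% of all genes. With median-of-ratios scaling, which moved the median of all genes in this comparison to -0.016, the split was 9 higher and 18 lower, against 29.2% and 30.5% of all genes. Both comparisons use the same Ad-GFP libraries, so their values are given side by side and no overlap between them is tested.

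The marker lists moved in the same libraries. Of the 10 fibroblast markers 9 fell and 1, Thy1, rose with Ad-shJP2 (median -0.77). Of the 10 macrophage and leukocyte markers 7 rose and 2 fell, Itgam the furthest (median 0.22). Of all genes 37.7% were lower there and 21.8% higher. After GC and length correction 4 macrophage markers rose and 2 fell (median 0.052), and 9 fibroblast markers fell (median -0.58). The shares of all genes were then 37.7% lower and 20.8% higher. In Ad-JP2 4 fibroblast markers rose and 0 fell (limma, 0 lower at an unadjusted p under 0.05). Of the macrophage markers 1 rose and 2 fell with Ad-JP2, where 13.4% of all genes were higher and 1.64% lower. In bulk RNA fewer cells of a type and less RNA per cell cannot be told apart, and the part of cell composition in the changes of the folding genes was not tested.

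**Figure D2:**
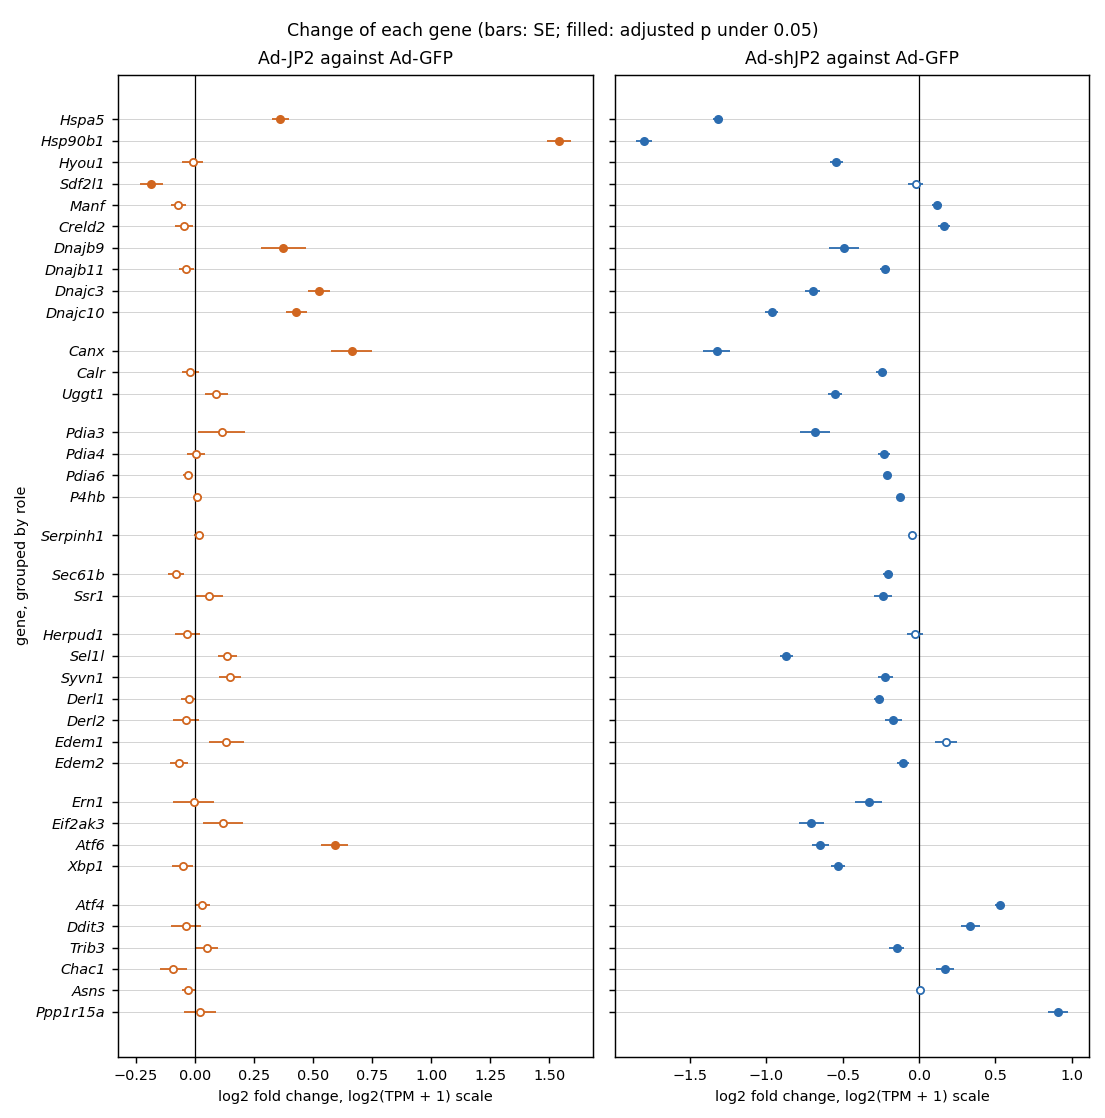
Log2 fold change of each tested member on the log2(TPM + 1) scale with its SE, grouped by role from lumenal chaperones at the top to the ATF4-CHOP branch at the bottom, for Ad-JP2 (left) and Ad-shJP2 (right) against Ad-GFP (n = 3 per group); filled points had an adjusted p under 0.05. The axes of the panels differ in range, and 7 filled points lie above 0 on the left and 6 on the right.

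The lumenal chaperones and their cofactors held the largest changes. Of 10 members 5 rose and 1 fell with Ad-JP2, against 13.4% and 1.64% of all genes. With Ad-shJP2 2 rose and 7 fell, against 21.8% and 37.7%. After GC and length correction limma called 4 higher and 0 lower with Ad-JP2, against 9% and 2.8% of all genes. With Ad-shJP2 it then called 0 higher and 7 lower, against 20.8% and 37.7%. Hsp90b1 encodes GRP94, the HSP90 of the ER, which folds integrins, Toll-like receptors and insulin-like growth factors. Its level was 57.4, 59.8 and 60.3 TPM with Ad-GFP, 165, 172 and 186 with Ad-JP2 and 17.1, 16.2 and 15.5 with Ad-shJP2. The 3 groups were fully separated, with every Ad-JP2 library above every control and every Ad-shJP2 library below. The mean was 2.94 times the control mean with Ad-JP2 (log2 fold change 1.54, SE 0.052, adjusted p = 7.6e-07), whereas it was 3.63-fold lower with Ad-shJP2 (log2 fold change -1.80, SE 0.052, adjusted p = 1.3e-08). It was the only member that changed at least 2-fold with Ad-JP2.

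Hspa5 encodes BiP, the HSP70 of the ER and the usual readout of the unfolded protein response. It stood at 424, 428 and 426 TPM with Ad-GFP, 535, 548 and 559 with Ad-JP2 and 179.8, 164 and 168 with Ad-shJP2, again with no overlap. Its rise with Ad-JP2 was 1.29-fold (log2 fold change 0.36, SE 0.034, adjusted p = 1.3e-04), and its fall with Ad-shJP2 2.50-fold (log2 fold change -1.32, SE 0.034, adjusted p = 7.8e-09). BiP works with J-domain cofactors that start its ATP cycle. Dnajc10, which also reduces disulfides of chains bound for degradation, was at 52.9, 54.5 and 53.4 TPM with Ad-GFP, 68.8, 74.4 and 74.4 with Ad-JP2 and 27.6, 25.8 and 27.5 with Ad-shJP2. Dnajc3, which is known both as a BiP cofactor and as an inhibitor of eIF2 kinases, was at 26.1, 25.3 and 23.9 TPM with Ad-GFP, 36.9, 36.2 and 36.3 with Ad-JP2 and 15.2, 14.5 and 15.7 with Ad-shJP2. In both genes the groups were separated in the order Ad-JP2, Ad-GFP, Ad-shJP2. The log2 fold changes were 0.43 and -0.96 for Dnajc10 and 0.52 and -0.70 for Dnajc3 with Ad-JP2 and Ad-shJP2 (adjusted p of 1.7e-07 to 1.8e-04).

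Dnajb9, a cofactor that hands BiP to the sensor IRE1, moved the same ways at a lower level (log2 fold change 0.37 with Ad-JP2, adjusted p = 0.0287, and -0.49 with Ad-shJP2, adjusted p = 0.00182). The rise did not pass when any of the 3 Ad-GFP libraries or Ad-JP2 replicate 2 or 3 was left out (adjusted p of 0.0592 to 0.1). Dnajb11 (-0.22) and the nucleotide exchange factor Hyou1 (-0.54) fell with Ad-shJP2 and were at -0.037 and -0.011 with Ad-JP2, which did not pass. The remaining cofactors behaved otherwise. Manf, which is released on ER calcium loss, rose from 428 ± 3.76 to 464 ± 18.8 TPM with Ad-shJP2 (log2 fold change 0.12, adjusted p = 0.00968). It turned to -0.061 after GC and length correction (adjusted p = 0.189) and did not pass with quantile normalization (0.079, adjusted p = 0.0506). Creld2, another stress-induced ER protein, rose from 37.9 ± 1.12 to 42.5 ± 0.484 TPM (log2 fold change 0.16, adjusted p = 0.00511), and it too turned after correction (-0.12, adjusted p = 0.0244). Sdf2l1, a BiP cofactor induced by the same stresses, was the only member lower with Ad-JP2 (log2 fold change -0.19, adjusted p = 0.0311), a call that did not pass without any of the 3 Ad-GFP libraries or Ad-JP2 replicate 2 or 3 (adjusted p of 0.0591 to 0.115).

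Among the lectin chaperones, which bind the sugar chains of new glycoproteins, calnexin had the largest changes. Canx was at 146, 146 and 145 TPM with Ad-GFP, 229, 234 and 231 with Ad-JP2 and 68.0, 50.3 and 55.8 with Ad-shJP2. All 3 groups were apart, with the widest spread with Ad-shJP2. The rise was 1.59-fold (log2 fold change 0.66, SE 0.088, adjusted p = 8.5e-04) and the fall 2.51-fold (log2 fold change -1.32, SE 0.088, adjusted p = 1.8e-06). Its soluble relative Calr was at 1013, 1083 and 1024 TPM with Ad-GFP, 990.4, 1029 and 1058 with Ad-JP2 and 897, 853 and 883 with Ad-shJP2. The Ad-JP2 values overlapped those of Ad-GFP without passing (log2 fold change -0.020, SE 0.034, adjusted p = 0.793), and those of Ad-shJP2 lay 1.19-fold below (log2 fold change -0.24, SE 0.034, adjusted p = 2.5e-04). Uggt1, the enzyme that marks misfolded glycoproteins for another round of folding, was at 41.1, 43.0 and 43.7 TPM with Ad-GFP, 45.8, 44.2 and 46.2 with Ad-JP2 and 27.9, 27.8 and 30.7 with Ad-shJP2. Only its fall with Ad-shJP2 passed (log2 fold change -0.55, adjusted p = 1.0e-05), and with Ad-JP2 it was at 0.090 (adjusted p = 0.289).

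The 4 disulfide isomerases all fell with Ad-shJP2, where 37.7% of all genes fell. With Ad-JP2 0 of 4 were called by limma (0 of 4 at an unadjusted p under 0.05), where 15% of all genes were called. Pdia3, the partner of calnexin and calreticulin, was at 475, 376 and 434 TPM with Ad-GFP, 527, 449 and 414 with Ad-JP2 and 253, 275 and 268 with Ad-shJP2. Its control and Ad-JP2 libraries overlapped and were among the most scattered of the list, while all Ad-shJP2 libraries lay below them (log2 fold change -0.68, SE 0.10, adjusted p = 3.2e-04). Pdia4 went from 116, 115 and 112 TPM with Ad-GFP to 101, 91.9 and 100.1 with Ad-shJP2, and Pdia6 from 206, 206 and 205 to 177, 176 and 180.5. These are falls of 1.17-fold and 1.16-fold (log2 fold change -0.23 and -0.21). P4hb was 1.09-fold lower (log2 fold change -0.12, adjusted p = 6.6e-04), close to the median shift of all genes. With median-of-ratios scaling neither P4hb (-0.0077) nor Pdia4 (-0.11) passed.

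Serpinh1 encodes the chaperone dedicated to the collagen triple helix. It was at 1677, 1673 and 1668 TPM with Ad-GFP, 1707, 1726 and 1643 with Ad-JP2 and 1612, 1626 and 1615 with Ad-shJP2. The Ad-shJP2 values were all below those of Ad-GFP, but the difference did not pass (log2 fold change -0.048, SE 0.020, adjusted p = 0.0696). It depended on processing, at -0.26 after correction for GC content and length (adjusted p = 5.1e-06). Median-of-ratios scaling turned it to 0.066 (adjusted p = 0.00811). It also passed without Ad-JP2 replicate 3 (adjusted p = 0.0138). Of the translocon genes, which pass new chains into the ER, Sec61b was at 158, 158 and 163 TPM with Ad-GFP and 143, 132 and 142 with Ad-shJP2, and Ssr1 at 115, 113 and 123 TPM with Ad-GFP and 98.5, 94.2 and 104 with Ad-shJP2. Each fell slightly with Ad-shJP2 (log2 fold change -0.20 and -0.24, adjusted p = 6.6e-04 and 0.00619), calls that did not pass with median-of-ratios scaling, and with Ad-JP2 they were at -0.081 and 0.059, which did not pass.

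Among the genes of ER-associated degradation Sel1l had the largest change before GC and length correction. In Ad-JP2 limma called 0 of 7 tested members (2 of 7 at an unadjusted p under 0.05, Sel1l and Syvn1, both higher). With Ad-shJP2 5 fell and 0 rose (1 higher at an unadjusted p under 0.05), against 37.7% and 21.8% of all genes. With median-of-ratios scaling 2 fell and 1 rose with Ad-shJP2, against 30.5% and 29.2%. After GC and length correction 6 fell and 1, Edem1, rose there, against 37.7% and 20.8%. The median was then -0.27, beside -0.12 over all genes. Sel1l is the scaffold of the HRD1 ubiquitin ligase, which Syvn1 encodes. Its level was 52.8, 54.3 and 55.8 TPM with Ad-GFP, 60.8, 60.5 and 58.1 with Ad-JP2 and 28.1, 30.5 and 29.3 with Ad-shJP2. The Ad-shJP2 libraries were well below the rest (1.85-fold, log2 fold change -0.87, SE 0.041, adjusted p = 2.3e-07), and the Ad-JP2 libraries lay just above the controls without passing (adjusted p = 0.0569), although they passed without Ad-shJP2 replicate 1 or 2, which enter only the shared spread (adjusted p of 0.0444 to 0.0463). Syvn1 was at 28.7, 29.1 and 29.1 TPM with Ad-GFP, 33.0, 33.2 and 30.4 with Ad-JP2 and 23.8, 24.5 and 25.9 with Ad-shJP2. It fell 1.17-fold with Ad-shJP2 (log2 fold change -0.22, adjusted p = 0.00348). In Ad-JP2 its value of 0.15 passed without Ad-JP2 replicate 3 (adjusted p = 0.0338).

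The derlins form part of the exit channel of this route. Derl1 went from 61.5, 60.8 and 60.7 TPM with Ad-GFP to 50.5, 49.1 and 52.4 with Ad-shJP2 (log2 fold change -0.26, adjusted p = 1.0e-04). Derl2 fell by 0.17 on the log2 scale (adjusted p = 0.0294) and Edem2, which trims mannose from chains to be degraded, by 0.10 (adjusted p = 0.0401). Derl2 did not pass without Ad-GFP replicate 2 or 3 or Ad-shJP2 replicate 2 or 3 (adjusted p of 0.0601 to 0.101). Edem2 did not pass without any 1 of 7 libraries, which were all but Ad-JP2 replicate 3 and Ad-shJP2 replicate 2 (adjusted p of 0.0533 to 0.118), and with median-of-ratios scaling its value was 0.0058. Edem1, of the same family, was at 0.18 and did not pass (adjusted p = 0.0624), but was higher with median-of-ratios scaling (0.29, adjusted p = 0.0086) and after GC and length correction (0.63, adjusted p = 9.0e-05). It also passed without Ad-GFP replicate 3 (0.24, adjusted p = 0.0246) or Ad-shJP2 replicate 1 (0.23, adjusted p = 0.0306). Herpud1, a stress-induced part of the ligase complex with the promoter printed above, was at 70.1 ± 2.24, 68.6 ± 4.95 and 68.8 ± 1.56 TPM with Ad-GFP, Ad-JP2 and Ad-shJP2, and passed in neither comparison.

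The messages of the 3 sensors and of Xbp1 all fell with Ad-shJP2 before correction for GC content and length, where 37.7% of all genes fell. Atf6 alone of them was called with Ad-JP2, as higher. After correction 2 of 4, Eif2ak3 and Xbp1, were lower with Ad-shJP2, against 37.7% of all genes. ATF6 is a transcription factor that is cut free from the ER membrane under stress. Atf6 was at 14.7, 14.4 and 15.1 TPM with Ad-GFP, 22.3, 23.1 and 22.6 with Ad-JP2 and 9.54, 9.25 and 8.35 with Ad-shJP2. The groups were separated, with a 1.54-fold rise (log2 fold change 0.59, SE 0.056, adjusted p = 1.3e-04) and a 1.63-fold fall (log2 fold change -0.65, SE 0.056, adjusted p = 1.0e-05). The fall was lost after correction (0.0076, adjusted p = 0.917). Eif2ak3, the kinase PERK, was at 11.3, 11.5 and 12.6 TPM with Ad-GFP, 14.6, 11.9 and 12.3 with Ad-JP2 and 6.58, 7.28 and 6.68 with Ad-shJP2. Its Ad-JP2 values overlapped the controls, and its fall with Ad-shJP2 was 1.72-fold (log2 fold change -0.71, SE 0.083, adjusted p = 8.0e-05).

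Ern1 encodes IRE1, which splices Xbp1 RNA. It fell from 9.58 ± 0.655 to 7.42 ± 0.684 TPM with Ad-shJP2 (log2 fold change -0.33, adjusted p = 0.00925). That call was lost after GC and length correction (0.012, adjusted p = 0.908) and with quantile normalization (-0.10, adjusted p = 0.351). Xbp1 was at 116, 109.8 and 111 TPM with Ad-GFP, 110.5, 109 and 105 with Ad-JP2 and 77.5, 73.0 and 81.6 with Ad-shJP2. The Ad-JP2 values overlapped the controls and the Ad-shJP2 values were all lower (1.45-fold, log2 fold change -0.53, SE 0.044, adjusted p = 7.3e-06). A TPM per gene sums spliced and unspliced Xbp1, so the splicing itself was not measured.

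In the ATF4-CHOP branch, which follows phosphorylation of eIF2, more members rose than fell with Ad-shJP2, and Manf and Creld2, outside the branch, rose too. Of 6, 4 rose and 1 fell (median 0.25, beside -0.11 over all genes), against 21.8% and 37.7% of all genes. After GC and length correction 2 rose and 1 fell (median 0.013, beside -0.12), against 20.8% and 37.7%. With median-of-ratios scaling 5 rose, against 29.2% of all genes, with Trib3 not passing. In Ad-JP2 limma called 0 of 6 (0 of 6 at an unadjusted p under 0.05). Their summed level was 423 ± 1.97 TPM with Ad-GFP, 422 ± 4.10 with Ad-JP2 and 549 ± 9.77 with Ad-shJP2 (SD, n = 3), while that of the lumenal chaperones was 1254 ± 1.44, 1496 ± 23.1 and 918 ± 7.28 TPM. The largest rise was that of Ppp1r15a (GADD34), the phosphatase subunit that reverses eIF2 phosphorylation. It was at 50.2, 50.1 and 50.1 TPM with Ad-GFP, 54.6, 46.3 and 52.0 with Ad-JP2 and 87.5, 99.2 and 98.6 with Ad-shJP2. All Ad-shJP2 libraries were far above both other groups (1.90-fold, log2 fold change 0.91, SE 0.066, adjusted p = 3.4e-06).

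Atf4, the transcription factor of the branch, was at 147, 139 and 141 TPM with Ad-GFP, 144, 145 and 146 with Ad-JP2 and 208, 198 and 210.2 with Ad-shJP2, a 1.44-fold rise with Ad-shJP2 (log2 fold change 0.53, SE 0.031, adjusted p = 9.9e-07). ATF4 is controlled largely through translation, which these data do not measure. Ddit3, which encodes CHOP, was at 60.4, 64.8 and 63.5 TPM with Ad-GFP, 58.2, 62.8 and 62.4 with Ad-JP2 and 75.7, 88.0 and 75.5 with Ad-shJP2, with no overlap of Ad-shJP2 and the rest. Its 1.27-fold rise (log2 fold change 0.33, SE 0.063, adjusted p = 0.00147) ended after GC and length correction (0.034, adjusted p = 0.657). Chac1, a glutathione-degrading target of ATF4 and CHOP, was higher by 0.17 (adjusted p = 0.0285), a call that did not pass without any Ad-GFP library or without Ad-shJP2 replicate 1 or 3 (adjusted p of 0.0546 to 0.0803), and turned to -0.10 after correction (adjusted p = 0.17). Trib3, a pseudokinase induced by the same factors, fell slightly (-0.15, adjusted p = 0.0243), which did not pass without Ad-GFP replicate 1 or 3 or Ad-shJP2 replicate 2 or 3 (adjusted p of 0.0552 to 0.0665). The fall of Trib3 was larger after GC and length correction (-0.38, adjusted p = 1.0e-04) and did not pass with median-of-ratios scaling (-0.038, adjusted p = 0.5). Asns, the asparagine synthetase, was at 127 ± 0.153 and 127 ± 2.88 TPM with Ad-GFP and Ad-shJP2 and did not pass (adjusted p = 0.854).

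**Figure D3:**
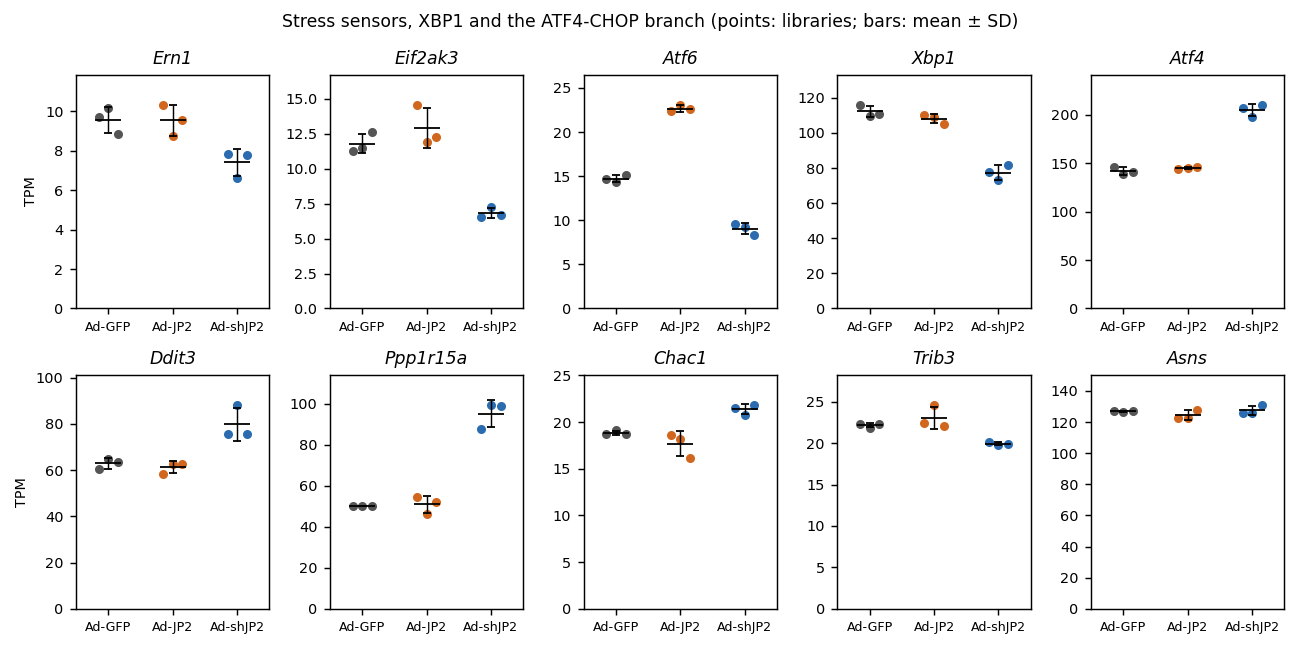
TPM of the sensors, Xbp1 and the 6 genes of the ATF4-CHOP branch in each library, on axes that start at 0, with bars for the mean ± SD of 3 libraries per virus. Ad-shJP2 is the lowest group for the sensors and Xbp1 and the highest for Atf4, Ddit3, Ppp1r15a and Chac1, and Atf6 is the one panel in which Ad-JP2 stands above Ad-GFP without overlap.

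Members with an ERSE did not all move one way. Of the 8 tested, 4 were called higher with Ad-JP2 (Hsp90b1, Canx, Dnajc3 and Hspa5), against 13.4% of all genes. Calr, Creld2, Pdia6 and Syvn1, with the same element, did not pass. In Ad-shJP2 7 fell and 1, Creld2, rose, against 37.7% and 21.8% of all genes. Median log2 fold changes were 0.25 and -0.47 for these 8, and 0.0090 and -0.17 for the 25 tested members whose promoter entry had none. After GC and length correction the medians were 0.16 and -0.30 with the element and 0.036 and -0.26 without it, so that the values with Ad-shJP2 lay close together. Of the 8, 7 were then lower with Ad-shJP2, Creld2 among them, against 37.7% of all genes, and Dnajc3 did not pass. Of the 25 without it, and before correction, 16 fell and 4 rose with Ad-shJP2, against 37.7% and 21.8%. The difference between these sets was not tested. Of the members with a CARE match, Chac1 rose with Ad-shJP2 and Asns and Herpud1 did not pass, while Atf4, Ddit3 and Ppp1r15a rose with no CARE letters in this window.

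GC content and length of the transcripts moved with these changes, in the members as in all genes. Across the 37 members Pearson's r between GC content and the log2 fold change was -0.62 with Ad-JP2 and 0.64 in Ad-shJP2 against Ad-GFP, and across 14025 genes -0.42 and 0.32. For log2 length the members' r was 0.41 and -0.44. These are correlations across genes, which share their libraries and are not independent replicates. The 5 members under 45% GC (Hsp90b1, Canx, Dnajc3, Dnajb9 and Dnajc10) had medians of 0.52 and -0.96, and the 2633 genes under 45% GC had medians of 0.27 and -0.44. The 8 members at 55% GC or more had medians of 0.0026 and -0.035, beside -0.027 and 0.033 for all such genes. The low-GC chaperones thus moved in the direction of other low-GC transcripts, and the part of GC content and length in these results was not tested beyond the correction that follows.

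**Figure D4:**
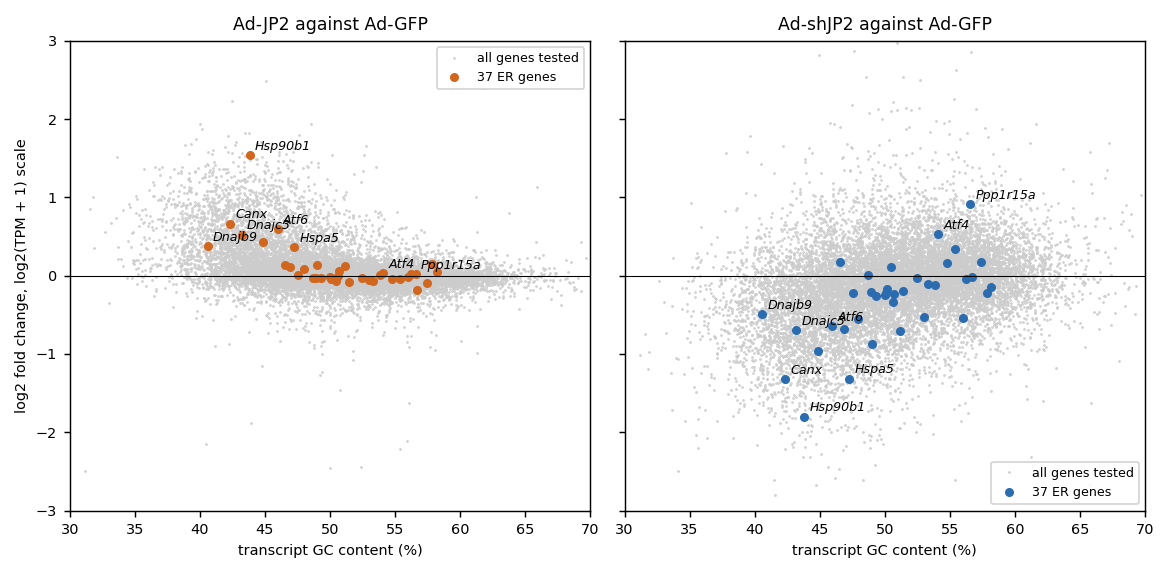
Log2 fold change on the log2(TPM + 1) scale against transcript GC content for all genes tested (grey) and the 37 members (coloured), with Ad-JP2 (left) and Ad-shJP2 (right) against Ad-GFP; genes beyond the axis limits are not drawn. Low-GC members such as Hsp90b1 and Canx lie high on the left and low on the right, and Hsp90b1 lies towards the edge of the grey cloud of its GC content.

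Each library was therefore also corrected for GC content and length. In Ad-JP2 7 members were then higher and 0 lower (limma, 1 lower at an unadjusted p under 0.05), against 9% and 2.8% of all genes. Hsp90b1 (1.32) and Hspa5 (0.32) kept most of their rise. Canx (0.36), Atf6 (0.29), Dnajc10 (0.18) and Dnajc3 (0.17) passed at smaller values (adjusted p of 0.012 to 0.0332), Dnajb9 did not (0.078), and Serpinh1 passed at 0.079 (adjusted p = 0.0321). In Ad-shJP2 3 members were higher and 25 lower after correction, against 20.8% and 37.7% of all genes. The falls of Hsp90b1 (-1.43), Hspa5 (-1.25), Canx (-0.81), Xbp1 (-0.76), Pdia3 (-0.56), Eif2ak3 (-0.56) and Sel1l (-0.52) passed, and so did the rises of Ppp1r15a (0.68) and Atf4 (0.28). The falls of Atf6 (0.0076), Dnajc3 (-0.025), Ern1 (0.012), Dnajb9 (-0.047) and Uggt1 (-0.088) did not. Creld2 turned from a rise to a fall, and Sdf2l1 (-0.32) and Herpud1 (-0.24) became lower.

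**Figure D5:**
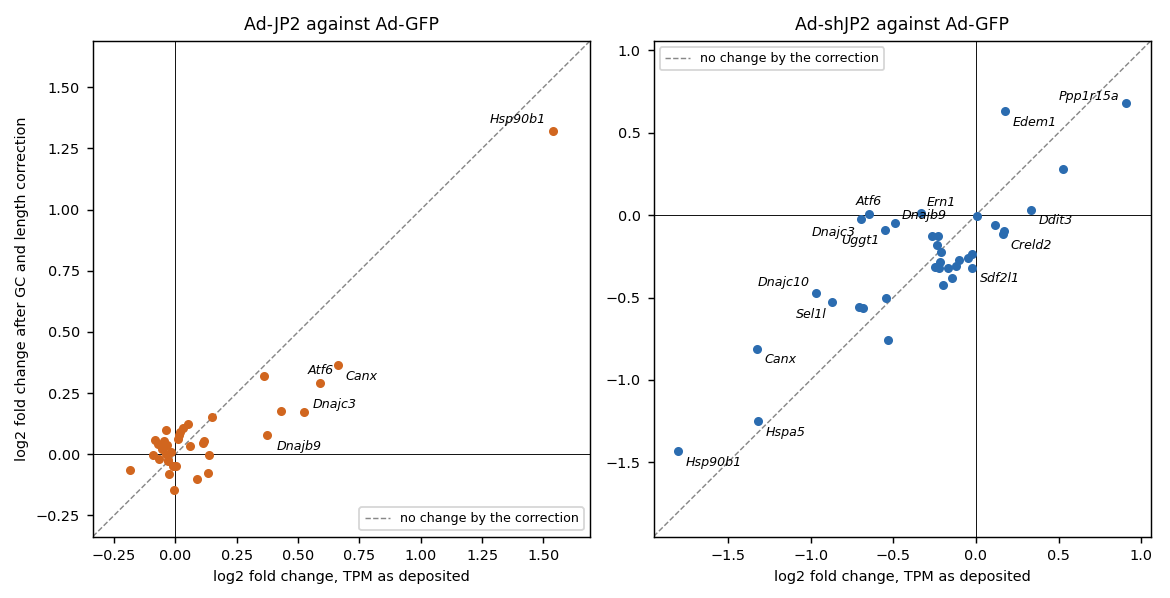
Log2 fold change of the 37 members before (horizontal) and after (vertical) correction for GC content and length, with Ad-JP2 (left) and Ad-shJP2 (right) against Ad-GFP; the dashed line marks equal values. Hspa5 stays near the line in the right panel and Hsp90b1 lies above it, whereas Atf6, Dnajc3 and Ern1 move to about 0 there.

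Set directly against each other, Ad-JP2 and Ad-shJP2 differed in most members. Of 37, 25 were higher and 7 lower with Ad-JP2, where 64.4% of all genes were called, 40.3% higher and 24.1% lower. Groups were without overlap for 32 members, against 67.1% of all genes. After GC and length correction 26 were higher and 3 lower, against 41.9% and 21.9% of genes. Median-of-ratios scaling gave 16 and 10, against 33.3% and 32.6%. Hsp90b1 stood 10.7 times as high with Ad-JP2 (log2 fold change 3.34, SE 0.052, adjusted p = 2.9e-10), Canx 3.99 times, Hspa5 3.21 times, Dnajc10 2.69 times, Atf6 2.51 times, Dnajc3 2.42 times and Sel1l 2.04 times. These 7 were the members at least 2-fold apart, and the last of them had not passed in Ad-JP2 against Ad-GFP. After GC and length correction all 7 still passed. Their log2 fold changes were then 2.76 (Hsp90b1), 1.57 (Hspa5), 1.17 (Canx), 0.65 (Dnajc10), 0.52 (Sel1l), 0.28 (Atf6) and 0.20 (Dnajc3). Before correction Atf6 had stood at 1.24 and Dnajc3 at 1.22. Ppp1r15a was 1.87-fold and Atf4 1.42-fold lower with Ad-JP2 than with Ad-shJP2. Manf, Creld2, Sdf2l1, Ddit3 and Chac1 were lower as well, with log2 fold changes of -0.37 to -0.16, and all 5 changed sign after GC and length correction. The call of Sdf2l1 was lost without Ad-JP2 replicate 3 (adjusted p = 0.0501), and that of Serpinh1, 0.064 higher with Ad-JP2, without Ad-JP2 replicate 1 or 2 or Ad-shJP2 replicate 1 or 3 (adjusted p of 0.0519 to 0.0802). Derl2 passed without Ad-shJP2 replicate 1 (adjusted p = 0.00549).

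Other genes of these pathways were taken from lists that share no gene with the members. With Ad-shJP2 more folding enzymes fell than rose, as did all genes, and more ATF4 targets rose than fell. Of 24 other folding enzymes 14 fell and 5 rose there (median -0.19), against 37.7% and 21.8% of all genes. With median-of-ratios scaling 10 fell and 7 rose, against 30.5% and 29.2%. In Ad-JP2 3 rose and 1 fell (median -0.0065), against 13.4% and 1.64%. These shares of all genes also stand beside the counts that follow. The membrane thioredoxin Tmx4 fell with Ad-shJP2 from 7.48 ± 0.305 to 1.88 ± 0.397 TPM (log2 fold change -1.57, SE 0.11, adjusted p = 2.6e-06). Its relative Tmx3 rose with Ad-JP2 from 5.32 ± 1.45 to 13.9 ± 0.593 TPM (log2 fold change 1.26, SE 0.22, adjusted p = 0.00369). Of 22 other degradation genes 14 fell and 3 rose with Ad-shJP2 (median -0.24), with 4 higher and 0 lower with Ad-JP2 (limma, 2 lower at an unadjusted p under 0.05). Ubxn4, an ER anchor of the p97 ATPase, rose with Ad-JP2 from 16.2 ± 1.11 to 37.2 ± 4.75 TPM (log2 fold change 1.14, SE 0.14, adjusted p = 5.1e-04) and fell with Ad-shJP2 to 3.35 ± 0.825 TPM (adjusted p = 2.4e-06). Edem3, of the same family as Edem1, had the largest rise of this list, with Ad-JP2 from 2.00 ± 0.145 to 7.64 ± 0.581 TPM (log2 fold change 1.52, SE 0.085, adjusted p = 8.8e-06). After GC and length correction Tmx4 was at -0.86 and Ubxn4 at -1.74 with Ad-shJP2. With Ad-JP2 Tmx3 was then at 0.84, Ubxn4 at 1.00 and Edem3 at 1.16.

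Of 25 other translocon and glycosylation genes 11 fell and 2 rose with Ad-shJP2, against 37.7% and 21.8% of all genes. Their median was -0.093, near that of all genes. With median-of-ratios scaling 5 fell and 7 rose, against 30.5% and 29.2%. Sec63, a J-protein that recruits BiP to the channel, fell with Ad-shJP2 by 1.46 on the log2 scale and rose by 1.36 with Ad-JP2. The signal peptidase subunit Spcs3 fell with Ad-shJP2 from 70.8 ± 1.20 to 19.9 ± 0.691 TPM (log2 fold change -1.78, SE 0.036, adjusted p = 2.3e-09). Other targets of ATF4, in contrast, rose for the most part. Of 28 tested 16 rose and 5 fell with Ad-shJP2 (median 0.23), against 21.8% and 37.7% of all genes. After GC and length correction 14 rose and 7 fell, against 20.8% and 37.7%. With Ad-JP2 3 rose and 0 fell (limma, 1 lower at an unadjusted p under 0.05), against 13.4% and 1.64%. Atf3, a stress factor of the same family, rose with Ad-shJP2 from 3.01 ± 0.299 to 7.86 ± 0.918 TPM (log2 fold change 1.14, SE 0.17, adjusted p = 3.2e-04). The amino acid transporter gene Slc38a2 went the other way, from 27.4 ± 0.748 to 11.9 ± 0.527 TPM (log2 fold change -1.14, SE 0.045, adjusted p = 7.7e-08), and rose with Ad-JP2 (log2 fold change 0.82). After GC and length correction Sec63 was at -0.63, Spcs3 at -1.15, Atf3 at 1.01 and Slc38a2 at -0.54 with Ad-shJP2. With Ad-JP2 Sec63 was then at 0.86 and Slc38a2 at 0.50.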

How the data were processed

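The deposited table gave TPM per gene for 9 libraries of 3 groups, per the file headers, with each gene's length and its effective length in bases. It has 0 columns of other samples. The build GRCm39 and the tools Salmon, DRAGEN and DESeq2 stand in the submitters' processing notes, without role or version. Libraries were polyA-selected and stranded, per the labels' protocols.

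Genes with at least 1 TPM in at least 3 libraries (14215) were put on a log2(TPM + 1) scale, which understates fold changes of low genes. The model, with a mean for each of the 3 groups, was fitted with limma 3.58.1 (R 4.3.3) and a mean-variance trend. Tests were two-sided moderated tests, adjusted by Benjamini-Hochberg over all genes, with a call at an adjusted p under 0.05. All adjusted p-values come from limma. Fold ratios are ratios of mean TPM. The procedure was tested on simulated data.

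The members and lists were chosen with earlier results of these data known. All members were named by role, and per-library values were given for up to 3 members per role with the largest called changes, for Hspa5, Xbp1, Atf4 and Ddit3, and for Derl3. Up to 2 genes per other list and comparison were eligible to be named by the same measure, and the per-library values of Serpinh1 were added after they were seen. A symbol on several lines took the line with the highest mean. 4 aminoacyl-tRNA synthetase genes were matched by older symbols.

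GC content came from the GENCODE M21 transcript nearest to the deposited length, matched by gene ID for 14025 tested genes, including all 37 members. The correction took from each library a spline fit of its deviations on GC content and length. Depth was estimated from TPM multiplied by effective length; 95.9% of low values lay within 0.1 of a whole read in Ad-GFP replicate 3 and 42.2% to 60.8% in the others, so depths are approximate and floors of 3 reads cover counting error only. Promoters came from a RefSeq table of build GRCm38.p6, matched by symbol for 34 members; no coordinates were joined to the deposited GRCm39 values. Reads shared by close paralogs may be split by the authors' quantification.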

Additional observations from a re-analysis of the deposited data

Results flagged for a closer look

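A second line of the table with the symbol Ddit3 (a gene model of 105 bases with an effective length of 4.05 bases) was not used in any comparison. It was listed at 39.6 TPM in Ad-JP2 replicate 1 and at 0 in the other 8 libraries, the Ad-GFP controls included, which is what drew attention to it. At the estimated depth this value equals about 4.73 reads.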

How the results depend on the processing

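Of 1776 recomputed fold changes of single members 1657 kept their direction and their side of the threshold or passed in neither setting, 71 lost their call, 26 gained one and 22 turned while called in either setting. No turn came from leaving out 1 library. The number called lower in Ad-JP2 against Ad-GFP was 1, and it was 0 with no filter on low values, 0 after GC and length correction and 0 with only the 6 libraries compared (limma, 3, 1 and 3 lower at an unadjusted p under 0.05), 3 with quantile normalization, and 0 to 1 with each library left out. Leaving out each library gave 6 to 8 higher in that comparison, 5 to 6 higher and 23 to 27 lower in Ad-shJP2 against Ad-GFP, and 24 to 25 higher and 6 to 7 lower in Ad-JP2 against Ad-shJP2. After GC and length correction 3 in place of 6 were higher in Ad-shJP2 against Ad-GFP, and 3 in place of 7 lower in Ad-JP2 against Ad-shJP2. With median-of-ratios scaling 16 in place of 25 were higher in the last comparison, where the median of all genes went from 0.10 to -0.014. A change of pseudocount to 0.1 changed no call of a member. In Ad-shJP2 against Ad-GFP the values that turned were Manf -0.061, Creld2 -0.12, Ern1 0.012, Atf6 0.0076 and Chac1 -0.10 after GC and length correction, Serpinh1 0.066 and Edem2 0.0058 with median-of-ratios scaling, and Edem2 0.0092 with quantile normalization. In Ad-JP2 against Ad-shJP2 they were Sdf2l1 0.26, Manf 0.10, Creld2 0.17, Uggt1 -0.016, Herpud1 0.28, Ern1 -0.16, Ddit3 0.067 and Chac1 0.093 after correction, P4hb -0.0029, Serpinh1 -0.070 and Sec61b -0.013 with median-of-ratios scaling, and Edem2 -0.15, Ern1 -0.037 and Trib3 -0.00046 with quantile normalization. The cause was not tested.

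Same-numbered libraries of different groups share a number in the labels, and whether they share a culture or a batch is not given. Their deviations from the group means correlated at -0.11 to 0.11 over 9 pairs, and in 5 of 18 cases a library correlated best with its own number. With the replicate number as a block 7 members were higher and 25 lower in Ad-shJP2 against Ad-GFP, where Edem1 gained a call (adjusted p = 0.0116) and Edem2 lost one (adjusted p = 0.0693), 7 and 1 in Ad-JP2 against Ad-GFP, and 25 and 7 in Ad-JP2 against Ad-shJP2.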

Other observations

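Genes that carry cargo from the ER to the Golgi apparatus, or retrieve it, mostly fell in the libraries labelled Ad-shJP2. Of 20 tested 13 fell and 2 rose against Ad-GFP (median -0.34), where 37.7% of all genes fell and 21.8% rose. After GC and length correction 14 were lower and 3 higher, against 37.7% and 20.8% of all genes. With median-of-ratios scaling 12 were lower and 4 higher (median -0.23), against 30.5% and 29.2%. Sec23a, a coat subunit of the vesicles that leave the ER, fell from 76.8 ± 0.874 to 24.5 ± 0.895 TPM (log2 fold change -1.61, SE 0.034, adjusted p = 2.7e-09). Lman1, the lectin that loads glycoproteins into them, fell from 83.0 ± 1.30 to 32.1 ± 1.48 TPM (log2 fold change -1.34, SE 0.042, adjusted p = 2.2e-08). In Ad-JP2 5 rose and 0 fell (limma, 1 lower at an unadjusted p under 0.05), against 13.4% and 1.64% of all genes. The largest rise was that of Mia3, which helps to export large cargo such as procollagen, from 8.88 ± 1.20 to 16.7 ± 1.22 TPM (log2 fold change 0.85, SE 0.10, adjusted p = 3.4e-04). After GC and length correction Sec23a was at -1.04 and Lman1 at -1.24 with Ad-shJP2, and Mia3 at 0.67 with Ad-JP2.

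Among 14 other eIF2 kinase and eIF2 factor genes 5 rose and 6 fell in Ad-shJP2, where 21.8% of all genes were higher and 37.7% lower. In Ad-JP2 5 rose, against 13.4% of all genes. Eif2s2, the beta subunit of eIF2, rose in Ad-JP2 from 23.7 ± 1.14 to 50.2 ± 1.61 TPM (log2 fold change 1.05, SE 0.051, adjusted p = 4.4e-06) and fell in Ad-shJP2 by 1.46 on the log2 scale. Of 16 other sensor and processing genes 5 rose and 7 fell in Ad-shJP2, shares near those of all genes. There Creb3l2, a relative of ATF6 that drives secretory genes, fell from 35.6 ± 1.17 to 15.4 ± 0.876 TPM (log2 fold change -1.16, SE 0.052, adjusted p = 1.7e-07). After GC and length correction Creb3l2 was at -0.74 and Eif2s2 at -1.07 in Ad-shJP2, and Eif2s2 at 0.80 in Ad-JP2.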
